A study of Mus musculus with 9 samples.

Results

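The genes described here are 49 antiviral genes whose transcription is known to be raised by type I interferon, and they were taken by name from a table of 29763 named mouse genes. All 49 were found and passed the minimum of 1 TPM in at least 3 libraries, as did 11133 genes of the whole table. TPM, the unit of the table, is an abundance per transcript length scaled to a fixed total. The list covers the oligoadenylate synthetases, the Ifit, Mx, PYHIN, Parp, Trim and Schlafen families, the machinery that attaches ISG15 to proteins, nuclear body proteins and single effectors. Each gene had at least 1 TPM in each of the 9 libraries, and the lowest single value was 7.31 TPM, for Mx2.

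Polyadenylated RNA came from bone marrow-derived macrophages, primary cells grown for 7 days from mouse marrow in medium with 30% L929 supernatant, which supplies macrophage growth factor. Cells of all genotypes had received interferon-gamma at 40 ng/ml for 12 h, and no unstimulated library was analysed. The groups were cells without the Ndufa4l3-miR147 gene, also named Nmes1, cells without Ndufa4, and wild type, with 3 libraries each. Ndufa4 is a small protein bound to complex IV of the respiratory chain, and Ndufa4l3 is a relative of it whose gene also carries the microRNA miR-147. Loss of that protein and loss of the microRNA cannot be told apart in this knockout. The series asked how the make-up of complex IV bears on interferon signalling in macrophages. The labels call the replicates technical and do not give the number of mice, so the p-values measure the spread between libraries only.

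Type I interferons bind the receptor of Ifnar1 and Ifnar2, whose kinases Jak1 and Tyk2 activate transcription factors such as Stat2. Stat2 and Irf9 are parts of ISGF3, a complex that binds the interferon-stimulated response element of antiviral genes. Interferon-gamma, the stimulus used here, acts through another receptor and mainly through a different element, the gamma-activated site. Many antiviral genes respond to both kinds of interferon, in macrophages as in other cells.

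The response element is visible in the promoters of several of these genes. RefSeq promoter windows of 300 bases, 250 before and 50 after the start of transcription in GRCm38.p6, were found for 38 of the 49 genes. Isg15 and Bst2 are shown as the promoters of 2 of the most abundant genes, Ifit1 and Ifit3 as a pair of neighbouring paralogs, and Oas1a and Oas1g as near copies. Oasl1 is shown because it alone of the 49 was higher than wild type in both knockouts at an adjusted p under 0.05 by limma. Each line gives the 160 bases before the start of transcription, read along the gene from 5′ to 3′, with each response element core in capitals. The core was searched, on both strands, as GAAA followed by any 2 bases and GAAA again. A match on the opposite strand reads TTTC, any 2 bases and TTTC.
Isg15, chr4:156200819-156200978, minus strand: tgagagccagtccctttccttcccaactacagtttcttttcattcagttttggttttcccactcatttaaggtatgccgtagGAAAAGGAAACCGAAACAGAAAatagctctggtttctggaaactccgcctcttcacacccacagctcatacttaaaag
Bst2, chr8:71537473-71537632, minus strand: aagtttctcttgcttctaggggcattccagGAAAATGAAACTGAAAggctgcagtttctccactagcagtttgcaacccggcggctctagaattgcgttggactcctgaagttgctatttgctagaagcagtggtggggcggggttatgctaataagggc
Ifit1, chr19:34640729-34640888, plus strand: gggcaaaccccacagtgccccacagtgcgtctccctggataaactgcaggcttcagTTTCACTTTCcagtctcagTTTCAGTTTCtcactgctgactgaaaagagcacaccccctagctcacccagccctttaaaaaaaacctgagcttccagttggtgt
Ifit3, chr19:34583369-34583528, plus strand: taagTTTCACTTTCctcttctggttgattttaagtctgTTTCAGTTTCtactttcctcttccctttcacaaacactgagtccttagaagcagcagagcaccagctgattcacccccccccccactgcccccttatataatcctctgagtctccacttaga
Oas1a, chr5:120907526-120907685, minus strand: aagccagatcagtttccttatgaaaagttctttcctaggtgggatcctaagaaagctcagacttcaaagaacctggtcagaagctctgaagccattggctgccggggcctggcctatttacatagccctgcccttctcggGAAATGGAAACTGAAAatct
Oas1g, chr5:120887614-120887773, minus strand: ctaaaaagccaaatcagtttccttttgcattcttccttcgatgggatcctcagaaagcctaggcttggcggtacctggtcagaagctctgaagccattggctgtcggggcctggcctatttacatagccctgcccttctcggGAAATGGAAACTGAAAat
Oasl1, chr5:114923080-114923239, plus strand: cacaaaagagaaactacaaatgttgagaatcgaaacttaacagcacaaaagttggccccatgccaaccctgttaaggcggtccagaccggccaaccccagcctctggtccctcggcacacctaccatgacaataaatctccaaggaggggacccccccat

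In 15 of the 38 genes with a window, 39.5%, this core was present on at least 1 strand. It was present in 1079 of all 27025 genes with a window, 3.99%. The gamma-activated site, searched as TTCNNNGAA on either strand, was found in 5 of the 38 genes, 13.2%, and in 9.55% of all genes. The 15 genes held 25 cores, a core in overlapping windows counted once, of which 20 lay before the start of transcription and 5 after it, and the farthest began 156 bases before it. In 8 genes a single window held at least 2 cores, and in Isg15, Bst2, Oas1a and Oas1g, as the long capital runs show, neighbouring cores overlapped. The stretches of Oas1a and Oas1g shared a run of 56 identical bases out of 160. The Oasl1 window held no core, which says only that these letters were not in it.

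**Figure D1:**
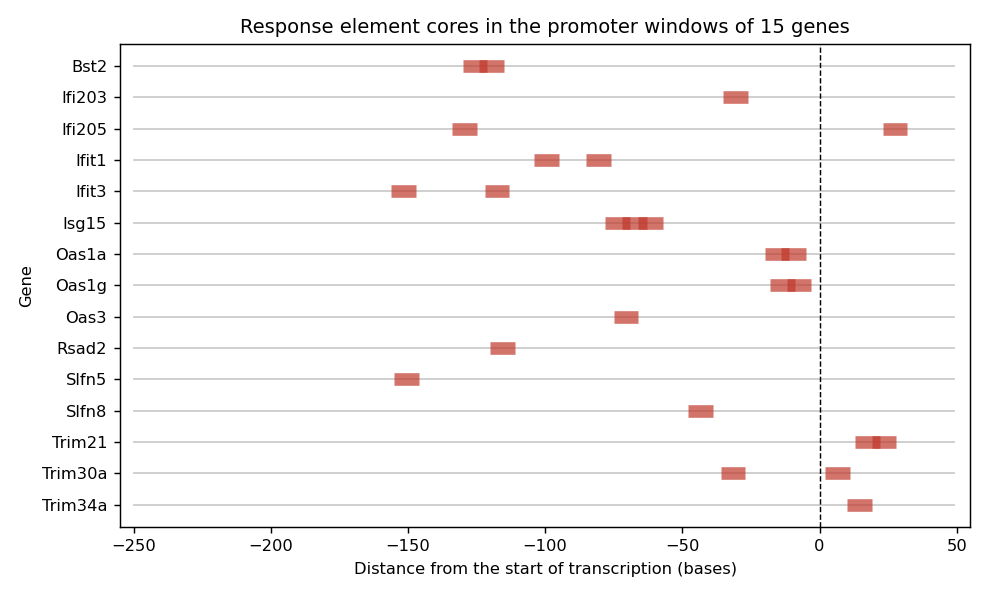
Position of each response element core (red bars) in the promoter windows of the 15 genes that held one, with the distance from the start of transcription in bases on the x axis; for genes with more than 1 window the cores are drawn on 1 line, each once. Of the 25 cores, 20 lie before the start, and overlapping bars mark overlapping cores.

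The genes were abundant in these macrophages. Their mean over all libraries ranged between 9.86 TPM for Mx2 and 1623 TPM for Bst2, with a median of 114.6 TPM, against a median of 18.7 TPM for all genes tested. Summed TPM of the 49 genes were 11570, 11499 and 11448 in the Ndufa4l3-miR147 knockout, 9153, 8891 and 8737 in the Ndufa4 knockout, and 10542, 10756 and 11189 in wild type. The 3 groups did not overlap in this sum, which was highest in the Ndufa4l3-miR147 knockout and lowest in the Ndufa4 knockout. As shares of all TPM listed, these sums were 1.25% to 1.26% in the Ndufa4l3-miR147 knockout, 0.949% to 0.993% in the Ndufa4 knockout, and 1.15% to 1.22% in wild type. In bulk RNA, fewer cells of a type and less RNA per cell cannot be told apart.

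**Figure D2:**
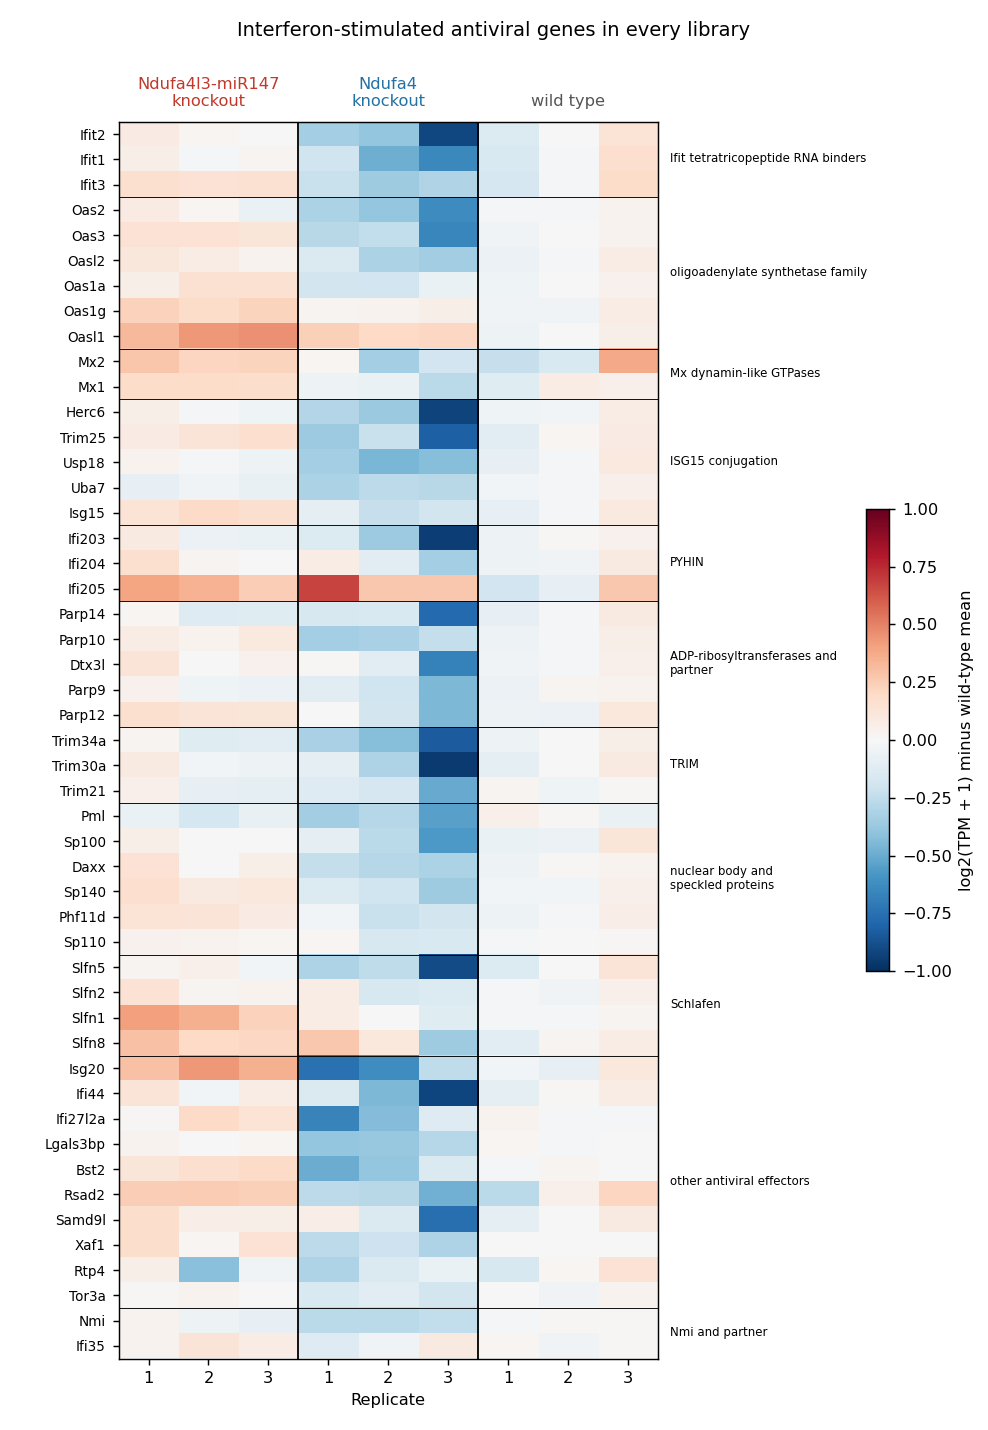
Difference of each gene from the wild-type mean on the log2(TPM + 1) scale (colour) in all 9 libraries (columns, by genotype and replicate), with the 49 genes in rows by role. Most rows are blue in the Ndufa4 knockout, deepest in its replicate 3, and 39 of the 49 genes averaged above wild type in the Ndufa4l3-miR147 knockout.

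Some facts about the libraries touch the values that follow. Ndufa4l3, listed as AA467197, had 2.90, 2.21 and 4.50 TPM in Ndufa4l3-miR147 knockout cells, 527, 472 and 519 TPM in Ndufa4 knockout cells and 365, 358 and 355 TPM in wild-type cells, so its knockout was visible in the table. Ndufa4 was listed at 0 to 0.621 TPM in all 9 libraries, wild type included, and therefore checks nothing. Replicate 3 of the Ndufa4 knockout stood apart from the other libraries. Its upper quartile over all named genes, those at 0 included, was 7.79 TPM, against 9.24 to 9.84 TPM in the other 8, and for 29 of the 49 genes it was the lowest of all 9 libraries. Of the macrophage markers, 7 of 8 were found and reached at least 12.2 TPM in every library. Summed, they reached 8440 to 8610 TPM in the Ndufa4l3-miR147 knockout, 9320 to 9830 TPM in the Ndufa4 knockout and 8830 to 8960 TPM in wild type. The order of these sums was that of Lyz2, the most abundant marker, which averaged 4094, 5414 and 4585 TPM in these groups. At an adjusted p under 0.05 by limma, Lyz2 was higher and Cd14 and Mertk lower in the Ndufa4 knockout than in wild type.

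In the Ndufa4 knockout, antiviral genes were mostly lower than in wild type. Of the 49, 16 fell and 1, Oasl1, rose at an adjusted p under 0.05 by limma (Benjamini-Hochberg over all genes tested, n = 3 libraries per genotype). These are 32.7% and 2.04% of the list, beside 5.76% and 2.83% of all genes tested, 641 that fell and 315 that rose, or 8.59% in either direction. The median log2 fold change of the 49 was -0.28, against -0.076 over all genes tested, and 4 of the 49 estimates were above 0. In 31 genes, 63.3%, the libraries of the Ndufa4 knockout all lay below those of wild type, beside 21.7% of all genes. In 1 gene they all lay above, beside 9.40%. At an unadjusted p under 0.05 by limma, 34 were lower and 2 higher, beside 18.1% of all genes tested that were lower and 8% that were higher. With median-of-ratios scaling 9 of the 49 fell and 1 rose, while over all genes the split became 442 that fell and 492 that rose. With quantile normalization it was 458 and 499 over all genes, and 15 and 1 for the 49.

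Lgals3bp, a secreted glycoprotein that binds galectin, had the smallest adjusted p among the genes that fell. It had 956, 936 and 943 TPM in Ndufa4l3-miR147 knockout cells, 714, 718 and 764 TPM in Ndufa4 knockout cells and 943, 926 and 928 TPM in wild-type cells. All libraries of the Ndufa4 knockout lay far below the other 6 (log2 fold change -0.35 ± 0.039, adjusted p = 0.00171). Oasl1, a member of the oligoadenylate synthetase family without enzyme activity that in mouse holds back translation of Irf7, went the other way. Its values were 68.9, 74.3 and 75.5 TPM in Ndufa4l3-miR147 knockout cells, 64.7, 63.1 and 63.3 TPM in Ndufa4 knockout cells and 52.8, 54.7 and 56.999 TPM in wild-type cells. The libraries of the Ndufa4 knockout lay above all those of wild type (log2 fold change 0.21 ± 0.055, adjusted p = 0.0464) and below all those of the Ndufa4l3-miR147 knockout.

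The number of calls changed with single libraries. When 1 library was left out, 25, 15 and 21 of the 49 fell without replicates 1, 2 and 3 of the Ndufa4 knockout, 6, 3 and 4 without those of wild type, and 11, 10 and 10 without those of the Ndufa4l3-miR147 knockout, which enters by the shared spread alone. Over all genes the share that fell moved as well, between 1.48% and 8.76% in these fits. Lgals3bp, Uba7 and Usp18 stayed called whichever library was left out, and the rise of Oasl1 passed in just 1 of these 9 fits, that without replicate 3 of the Ndufa4 knockout. The median of the 49 stayed between -0.32 and -0.23.

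In the Ndufa4l3-miR147 knockout the difference from wild type was small. Oasl1 rose (log2 fold change 0.40 ± 0.055, adjusted p = 0.0192), 2.04% of the list beside 0.243% of all genes tested, and no gene of the 49 fell, beside 0.189% of all (0.431% in either direction). At an unadjusted p under 0.05 by limma, 7 of the 49 were higher and 0 lower, beside 4.16% higher and 4.08% lower of all genes tested. The median log2 fold change was 0.068, against 0.0012 over all genes tested, and 39 of the 49 estimates were above 0. Libraries did not overlap in 18 genes that lay higher, 36.7% beside 11.9% of all genes, and in 2 that lay lower, 4.08% beside 12.0%. Those 2 were Pml, a nuclear body protein, and Uba7, an enzyme of ISG15 conjugation. The call of Oasl1 was lost without any 1 of the wild-type libraries or without replicate 2 or 3 of the Ndufa4l3-miR147 knockout, with adjusted p up to 0.142. Without replicate 3 of the Ndufa4 knockout, 4 of the 49 were higher in the Ndufa4l3-miR147 knockout than in wild type, while the share over all genes became 1.03%.

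Among the 49 genes, the comparison between the knockouts gave the most calls. The Ndufa4l3-miR147 knockout was higher than the Ndufa4 knockout for 48 of the 49 genes by estimate, all but Ifi205, and 20 passed the test, 40.8% of the list beside 2.20% of all genes tested. None was called lower, beside 1.04% of all (3.24% in either direction), and at an unadjusted p under 0.05 by limma 40 were higher and 0 lower, beside 14.6% and 5.72% of all. The median log2 fold change was 0.35, against 0.074 over all genes tested. Libraries did not overlap in 40 genes that were higher, 81.6% beside 18.3% of all, and in 0 that were lower, beside 6.98%. With median-of-ratios scaling 11 of the 49 were higher, and over all genes the split of 245 higher and 116 lower became 146 and 148. Quantile normalization gave 17 of the 49, and 193 and 187 over all genes. The comparisons share libraries, so the 3 counts are not independent of each other.

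These calls too moved with single libraries. Without replicates 1, 2 and 3 of the Ndufa4l3-miR147 knockout, 2, 5 and 3 of the 49 were higher. Without those of the Ndufa4 knockout it was 27, 15 and 24, and without those of wild type, 12, 8 and 13. Over all genes the share higher lay between 0.415% and 4.48% in these fits. Isg20 and Lgals3bp kept their call in each of these fits, and the median stayed between 0.29 and 0.39.

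**Figure D3:**
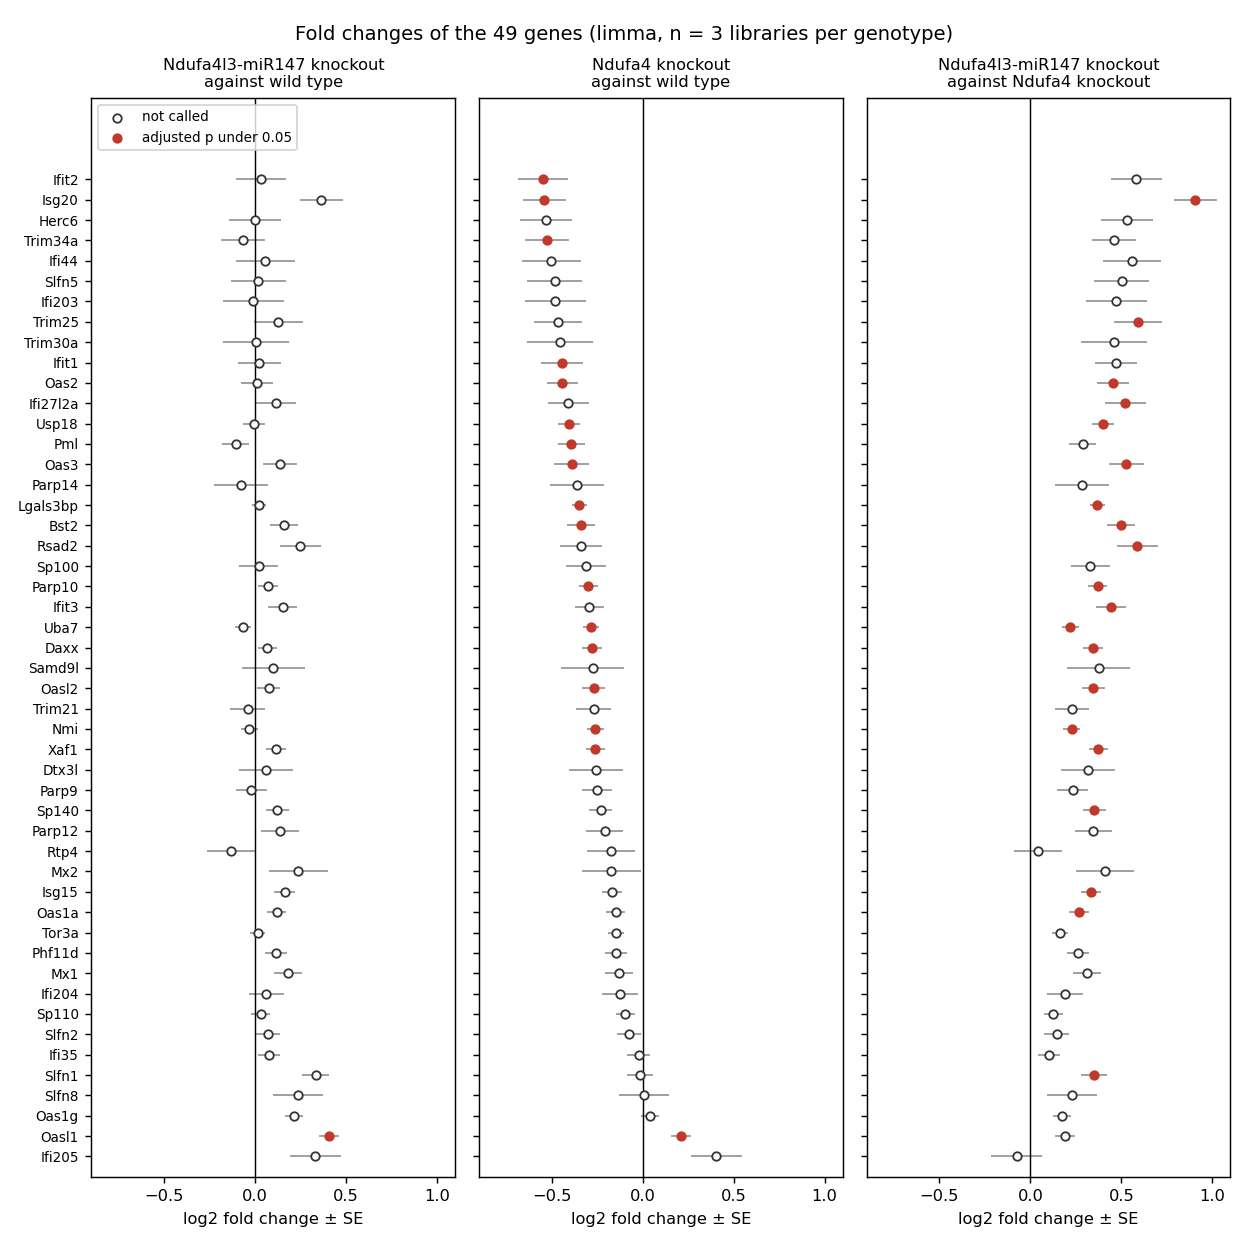
Log2 fold changes (x axis, points) with standard errors (bars) of the 49 genes in the 3 comparisons, ordered by the comparison of the Ndufa4 knockout with wild type; red points passed an adjusted p under 0.05 by limma. In the Ndufa4 knockout 16 genes fell and 1 rose, against 1 that rose in the Ndufa4l3-miR147 knockout, and 20 were higher in the Ndufa4l3-miR147 knockout than in the Ndufa4 knockout.

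Of the 49 genes, 25 passed in at least 1 comparison and 24 in none. The genes that fell in the Ndufa4 knockout against wild type and those higher in the Ndufa4l3-miR147 knockout than in the Ndufa4 knockout shared 12 members, which is 12 of 16 and 12 of 20; the Ndufa4 knockout libraries enter both. By mean, 35 genes ran from highest in the Ndufa4l3-miR147 knockout through wild type to lowest in the Ndufa4 knockout. In 8 of these, Isg15, Oas1a, Oas3, Xaf1, Bst2, Trim25, Isg20 and Sp140, no library of 1 genotype overlapped another genotype. Neither count was made over all genes tested, so neither shows that this order is particular to the 49.

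The tetratricopeptide proteins of the Ifit genes bind foreign RNA and block its translation. Of these 3 genes, 2 fell in the Ndufa4 knockout, beside 5.76% of all genes tested. Ifit1, which recognises RNA lacking the methyl marks of host caps, had 70.9, 67.3 and 69.5 TPM in Ndufa4l3-miR147 knockout cells, 59.1, 48.2 and 43.2 TPM in Ndufa4 knockout cells and 61.2, 67.1 and 76.7 TPM in wild-type cells. The highest Ndufa4 knockout library lay just under the lowest of wild type (log2 fold change -0.45 ± 0.12, adjusted p = 0.0478). Ifit2, its relative, had 433, 413 and 407 TPM in Ndufa4l3-miR147 knockout cells, 321, 311 and 216 TPM in Ndufa4 knockout cells and 372, 406 and 448 TPM in wild-type cells. Replicate 3 of the Ndufa4 knockout was lowest by a wide margin, and the others also lay below wild type (log2 fold change -0.55 ± 0.14, adjusted p = 0.0422). Ifit3, which in human cells stabilises the Ifit1 protein, had 268, 265 and 266 TPM in Ndufa4l3-miR147 knockout cells, 205, 188 and 194 TPM in Ndufa4 knockout cells and 213, 238 and 272 TPM in wild-type cells. Its 3 values in the Ndufa4l3-miR147 knockout were nearly equal and above all those in the Ndufa4 knockout (log2 fold change 0.44 ± 0.081, adjusted p = 0.0234), while the difference of the Ndufa4 knockout from wild type missed the threshold (log2 fold change -0.29 ± 0.081, adjusted p = 0.0572). Ifit1 and Ifit2 also lay above the Ndufa4 knockout without overlap in the Ndufa4l3-miR147 knockout, at adjusted p of 0.0679 and 0.0598.

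The oligoadenylate synthetases sense double-stranded RNA and make the messenger that switches on RNase L. Of the 6 genes of this family, 3 fell and 1 rose in the Ndufa4 knockout, beside 5.76% and 2.83% of all genes tested. In the Ndufa4l3-miR147 knockout 1 rose against wild type, beside 0.243%, and 4 were higher than in the Ndufa4 knockout, beside 2.20%. Oas2 had 33.5, 32.1 and 30.1 TPM in Ndufa4l3-miR147 knockout cells, 25.2, 24.01 and 20.1 TPM in Ndufa4 knockout cells and 31.1, 31.3 and 32.4 TPM in wild-type cells. It did not separate the Ndufa4l3-miR147 knockout from wild type but fell in the Ndufa4 knockout (log2 fold change -0.44 ± 0.086, adjusted p = 0.0176). Oas3, the longest synthetase, had 219.9, 219.7 and 216 TPM in Ndufa4l3-miR147 knockout cells, 164, 168 and 126 TPM in Ndufa4 knockout cells and 195, 198 and 204 TPM in wild-type cells. All 3 genotypes were apart, with a fall in the Ndufa4 knockout against wild type (log2 fold change -0.39 ± 0.095, adjusted p = 0.0381) and a higher level in the Ndufa4l3-miR147 knockout than in the Ndufa4 knockout (log2 fold change 0.53 ± 0.095, adjusted p = 0.0224).

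Oasl2, a synthetase relative with ubiquitin-like domains, had 385, 376 and 366 TPM in Ndufa4l3-miR147 knockout cells, 322, 285 and 279.9 TPM in Ndufa4 knockout cells and 343, 352 and 376 TPM in wild-type cells. It fell in the Ndufa4 knockout against wild type (log2 fold change -0.27 ± 0.062, adjusted p = 0.0314) and was higher in the Ndufa4l3-miR147 knockout than there (log2 fold change 0.35 ± 0.062, adjusted p = 0.0224). Oas1a, an active synthetase, had 169, 181 and 181 TPM in Ndufa4l3-miR147 knockout cells, 143, 143 and 155 TPM in Ndufa4 knockout cells and 158, 163 and 168 TPM in wild-type cells. Its groups lay side by side without overlap, and the difference between the knockouts passed (log2 fold change 0.27 ± 0.053, adjusted p = 0.0308), not that of the Ndufa4 knockout from wild type (log2 fold change -0.15 ± 0.053, adjusted p = 0.117). Oas1g, the near copy of Oas1a whose promoter is printed above, passed in no comparison, with estimates of 0.21 ± 0.050 in the Ndufa4l3-miR147 knockout and 0.038 ± 0.050 in the Ndufa4 knockout against wild type, and of 0.17 ± 0.050 between the knockouts. Reads can be shared between Oas1a and Oas1g, so their split is uncertain.

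Mx1 and Mx2 belong to a family of dynamin-like GTPases that trap viral nucleoproteins. The GENCODE M21 annotation lists mouse Mx2 as a polymorphic pseudogene. Mx1 had 50.003, 50.1 and 49.8 TPM in Ndufa4l3-miR147 knockout cells, 42.4, 41.9 and 36.3 TPM in Ndufa4 knockout cells and 40.2, 46.2 and 45.5 TPM in wild-type cells. The 3 Ndufa4l3-miR147 knockout values were almost equal and above the rest, with neither comparison past the threshold (adjusted p = 0.592 against wild type and 0.0679 against the Ndufa4 knockout). Mx2, the least abundant gene of the list, lay between 7.31 and 12.7 TPM. Neither Mx gene was called. At an unadjusted p under 0.05 by limma, both were higher in the Ndufa4l3-miR147 knockout than in the Ndufa4 knockout, beside 14.6% of all genes. At that threshold 1 was also higher in the Ndufa4l3-miR147 knockout than in wild type, beside 4.16%.

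ISG15 is a ubiquitin-like protein that is attached to other proteins in interferon-treated cells. Of the 5 genes of this system, 2 fell in the Ndufa4 knockout and 4 were higher in the Ndufa4l3-miR147 knockout than in the Ndufa4 knockout. Over all genes tested, 5.76% fell and 2.20% were higher in these comparisons. Isg15, the modifier itself, had 619.9, 643 and 632 TPM in Ndufa4l3-miR147 knockout cells, 529, 481 and 496 TPM in Ndufa4 knockout cells and 533, 558 and 604 TPM in wild-type cells. The groups did not overlap, and the knockouts differed by the test (log2 fold change 0.33 ± 0.056, adjusted p = 0.0172), whereas the Ndufa4 knockout against wild type did not pass (log2 fold change -0.17 ± 0.056, adjusted p = 0.0975). Uba7, the enzyme that activates ISG15, had 96.1, 99.3 and 96.7 TPM in Ndufa4l3-miR147 knockout cells, 81.6, 84.8 and 84.2 TPM in Ndufa4 knockout cells and 99.99, 101 and 106 TPM in wild-type cells. It fell in the Ndufa4 knockout (log2 fold change -0.29 ± 0.046, adjusted p = 0.0083), and here wild type, not the Ndufa4l3-miR147 knockout, was highest.

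Usp18, the protease that takes ISG15 off again and also blocks the type I receptor, had 144, 139 and 135 TPM in Ndufa4l3-miR147 knockout cells, 111, 102 and 104 TPM in Ndufa4 knockout cells and 132, 139 and 149.8 TPM in wild-type cells. The Ndufa4l3-miR147 knockout and wild type overlapped, and the Ndufa4 knockout lay below both (log2 fold change -0.41 ± 0.059, adjusted p = 0.0057 against wild type; log2 fold change 0.40 ± 0.059, adjusted p = 0.0102 between the knockouts). Trim25, a ubiquitin ligase of the RNA sensor RIG-I that also transfers ISG15, had 76.9, 79.2 and 81.7 TPM in Ndufa4l3-miR147 knockout cells, 56.1, 61.9 and 40.8 TPM in Ndufa4 knockout cells and 67.4, 73.4 and 76.7 TPM in wild-type cells. The knockouts differed (log2 fold change 0.59 ± 0.13, adjusted p = 0.0473), with replicate 3 of the Ndufa4 knockout farthest down. Herc6, the ligase that attaches ISG15 in mouse, lay at 31.5 to 63.9 TPM and passed in no comparison, at -0.53 ± 0.14 with an adjusted p of 0.0523 in the Ndufa4 knockout against wild type.

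**Figure D4:**
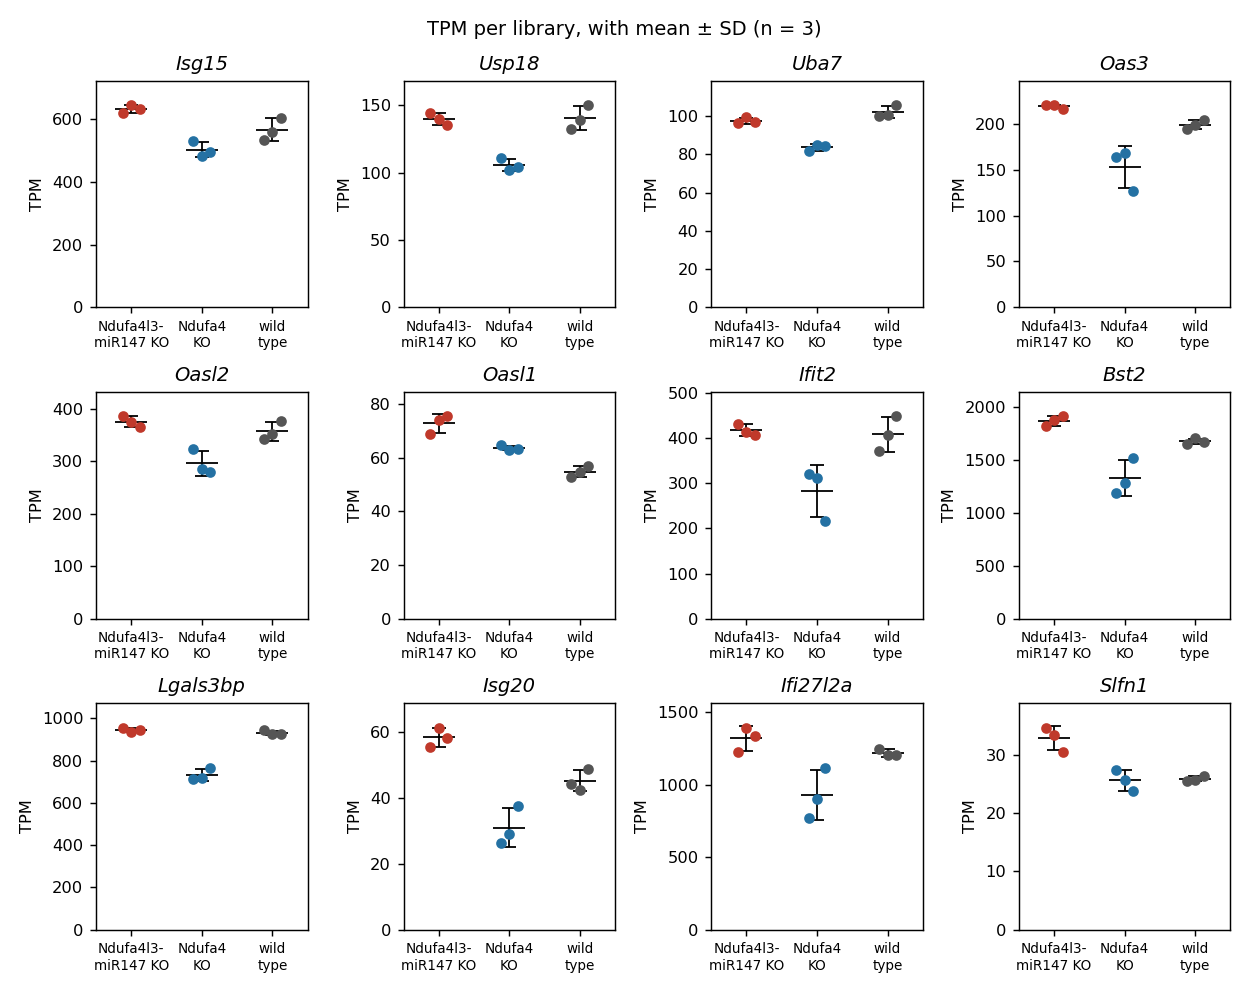
TPM of 12 genes in each library (points), with the mean and SD of 3 libraries (lines and bars), for the Ndufa4l3-miR147 knockout, the Ndufa4 knockout and wild type; all axes start at 0. Oasl1 is the one panel in which both knockouts lie above wild type. In every panel but those of Oasl1 and Slfn1, the Ndufa4 knockout lies below the others without overlap.

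The PYHIN genes Ifi203, Ifi204 and Ifi205 encode relatives of the DNA sensors of the interferon-inducible HIN family. None was called in any comparison. Ifi204, the most abundant, had 501, 456 and 446 TPM in Ndufa4l3-miR147 knockout cells, 472, 412 and 353 TPM in Ndufa4 knockout cells and 431, 436 and 475 TPM in wild-type cells, and its groups overlapped throughout. Ifi203 was at -0.48 ± 0.17 in the Ndufa4 knockout against wild type, with an adjusted p of 0.113, and Ifi205 at 0.40 ± 0.14, with an adjusted p of 0.111. At an unadjusted p under 0.05 by limma, 1 of the 3 was lower and 1 higher there, beside 18.1% and 8% of all genes tested. At that threshold Ifi205 was also higher in the Ndufa4l3-miR147 knockout than in wild type, beside 4.16% of all genes. Ifi203 was higher in the Ndufa4l3-miR147 knockout than in the Ndufa4 knockout, beside 14.6%. Ifi203, Ifi204 and Ifi205 are close paralogs on chromosome 1, so reads can be shared between them.

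Parp9, Parp10, Parp12 and Parp14 carry ADP-ribosyltransferase domains, and Dtx3l is the ubiquitin ligase that binds Parp9. Parp10, which adds single ADP-ribose units, had 61.9, 60.3 and 62.8 TPM in Ndufa4l3-miR147 knockout cells, 46.2, 46.7 and 49.7 TPM in Ndufa4 knockout cells and 56.6, 58.2 and 61.2 TPM in wild-type cells. It fell in the Ndufa4 knockout against wild type (log2 fold change -0.30 ± 0.054, adjusted p = 0.014) and was higher in the Ndufa4l3-miR147 knockout than in the Ndufa4 knockout (log2 fold change 0.37 ± 0.054, adjusted p = 0.0101). Parp14, the largest of the family, had 182, 164 and 165 TPM in Ndufa4l3-miR147 knockout cells, 161, 161 and 104 TPM in Ndufa4 knockout cells and 169.6, 178 and 191 TPM in wild-type cells. Replicates 1 and 2 of the Ndufa4 knockout lay close under the other genotypes and replicate 3 far under them, and no comparison passed (log2 fold change -0.36 ± 0.15, adjusted p = 0.168 against wild type). Parp9, Parp12 and Dtx3l had estimates of -0.25, -0.21 and -0.26 in the Ndufa4 knockout against wild type, none past the threshold.

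Of 3 further tripartite motif genes, 1, Trim34a, fell in the Ndufa4 knockout, beside 5.76% of all genes tested. It had 36.9, 33.1 and 33.5 TPM in Ndufa4l3-miR147 knockout cells, 28.7, 26.6 and 19.8 TPM in Ndufa4 knockout cells and 34.8, 36.002 and 37.6 TPM in wild-type cells. The Ndufa4 knockout was lowest in all its libraries (log2 fold change -0.53 ± 0.12, adjusted p = 0.0307). Trim30a, in mouse a restraint on NF-kappaB signalling, had 164, 151 and 149 TPM in Ndufa4l3-miR147 knockout cells, 144, 124 and 78.9 TPM in Ndufa4 knockout cells and 144, 155 and 165 TPM in wild-type cells. Replicate 3 of the Ndufa4 knockout was far below the rest, but replicate 1 reached the lowest wild-type value, and the test was not passed (log2 fold change -0.46 ± 0.18, adjusted p = 0.156). Trim21, a cytosolic antibody receptor, was at -0.27 ± 0.096 with an adjusted p of 0.118. Trim30a and Trim34a belong to clusters of similar genes on chromosome 7, so reads can be shared with their neighbours.

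Nuclear bodies hold Pml, Sp100 and Daxx, which silence incoming viral genomes, and Sp110 and Sp140 are relatives of Sp100. With Phf11d they make 6 genes, of which 2 fell in the Ndufa4 knockout and 2 were higher in the Ndufa4l3-miR147 knockout than in the Ndufa4 knockout. The shares of all genes tested were 5.76% and 2.20%. Pml, the scaffold of these bodies, had 65.5, 60.8 and 65.1 TPM in Ndufa4l3-miR147 knockout cells, 53.7, 56.1 and 46.9 TPM in Ndufa4 knockout cells and 71.4, 69.3 and 65.6 TPM in wild-type cells. Wild type was highest, the Ndufa4 knockout lowest (log2 fold change -0.39 ± 0.074, adjusted p = 0.0159), and the libraries of the Ndufa4l3-miR147 knockout lay between. Daxx, a histone chaperone, had 132, 119 and 125 TPM in Ndufa4l3-miR147 knockout cells, 101, 98.04 and 96.2 TPM in Ndufa4 knockout cells and 116, 121 and 123 TPM in wild-type cells. It fell in the Ndufa4 knockout against wild type (log2 fold change -0.28 ± 0.053, adjusted p = 0.0161) and was higher in the Ndufa4l3-miR147 knockout than there (log2 fold change 0.34 ± 0.053, adjusted p = 0.0124). Sp140, a chromatin reader, had 107, 101 and 102 TPM in Ndufa4l3-miR147 knockout cells, 86.4, 82.5 and 74.2 TPM in Ndufa4 knockout cells and 93.4, 93.2 and 98.6 TPM in wild-type cells. The 3 groups were apart, and the knockouts differed (log2 fold change 0.35 ± 0.063, adjusted p = 0.0223). Sp100 had 337, 325 and 323 TPM in Ndufa4l3-miR147 knockout cells, 304, 269 and 217 TPM in Ndufa4 knockout cells and 309.98, 312 and 352 TPM in wild-type cells, and passed in no comparison (log2 fold change -0.31 ± 0.11, adjusted p = 0.114 in the Ndufa4 knockout against wild type). Sp110 and Phf11d stood at -0.096 and -0.14 there, not past the threshold.

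Schlafen genes take part in cell quiescence and in the control of transfer RNA. Slfn1 had 34.7, 33.5 and 30.5 TPM in Ndufa4l3-miR147 knockout cells, 27.3, 25.7 and 23.8 TPM in Ndufa4 knockout cells and 25.5, 25.7 and 26.4 TPM in wild-type cells. Here the Ndufa4 knockout covered the range of wild type and the Ndufa4l3-miR147 knockout stood above both; the knockouts differed (log2 fold change 0.35 ± 0.073, adjusted p = 0.0381), and the difference of the Ndufa4l3-miR147 knockout from wild type did not pass (log2 fold change 0.33 ± 0.073, adjusted p = 0.142). Slfn2, the most abundant of the 4, had 758, 698 and 702 TPM in Ndufa4l3-miR147 knockout cells, 721, 612 and 622 TPM in Ndufa4 knockout cells and 679, 668 and 711 TPM in wild-type cells, and its groups overlapped. Slfn5 and Slfn8 were not called, at -0.48 and 0.0050 in the Ndufa4 knockout against wild type. The Schlafen genes lie together on chromosome 11 and include close paralogs, which limits the value of each alone.

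The remaining effectors included the most abundant genes of the list. Of these 10, 4 fell in the Ndufa4 knockout, beside 5.76% of all genes tested. In the Ndufa4l3-miR147 knockout 6 were higher than in the Ndufa4 knockout, beside 2.20%. Bst2, or tetherin, which holds budding virus at the cell surface, had 1816, 1877 and 1909.6 TPM in Ndufa4l3-miR147 knockout cells, 1189, 1282 and 1517 TPM in Ndufa4 knockout cells and 1651, 1702 and 1668 TPM in wild-type cells. The order of the genotypes held without overlap, with replicate 3 of the Ndufa4 knockout nearest to wild type (log2 fold change -0.34 ± 0.078, adjusted p = 0.0307). Between the knockouts the log2 fold change was 0.50 ± 0.078, with an adjusted p of 0.0125. Ifi27l2a, a small membrane protein of interferon-treated cells, had 1228, 1394 and 1339 TPM in Ndufa4l3-miR147 knockout cells, 768, 905 and 1113 TPM in Ndufa4 knockout cells and 1249, 1205 and 1204 TPM in wild-type cells. The Ndufa4 knockout was lowest and most variable; it differed from the Ndufa4l3-miR147 knockout (log2 fold change 0.52 ± 0.11, adjusted p = 0.0449) and missed the threshold against wild type (log2 fold change -0.41 ± 0.11, adjusted p = 0.0592).

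Isg20, an exonuclease that degrades viral RNA, showed the largest difference between the knockouts by estimate among the 49 genes. It had 55.5, 61.3 and 58.1 TPM in Ndufa4l3-miR147 knockout cells, 26.4, 28.9 and 37.6 TPM in Ndufa4 knockout cells and 44.3, 42.5 and 48.6 TPM in wild-type cells. The Ndufa4l3-miR147 knockout was above the Ndufa4 knockout by 0.91 ± 0.12 (adjusted p = 0.00589), and the Ndufa4 knockout fell below wild type by test (log2 fold change -0.54 ± 0.12, adjusted p = 0.0261). Against wild type the Ndufa4l3-miR147 knockout was also higher without overlap, but did not pass (log2 fold change 0.36 ± 0.12, adjusted p = 0.384). Xaf1, an antagonist of the apoptosis inhibitor XIAP, had 215, 193 and 210.4 TPM in Ndufa4l3-miR147 knockout cells, 158, 165 and 153 TPM in Ndufa4 knockout cells and 189.8, 190.2 and 191 TPM in wild-type cells. Its wild-type values were nearly equal and lay between those of the knockouts, with a fall in the Ndufa4 knockout (log2 fold change -0.26 ± 0.053, adjusted p = 0.0202) and a difference between the knockouts (log2 fold change 0.37 ± 0.053, adjusted p = 0.0087).

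Rsad2, or viperin, an enzyme that makes a chain-terminating nucleotide, had 87.99, 88.4 and 87.4 TPM in Ndufa4l3-miR147 knockout cells, 61.6, 60.9 and 52.5 TPM in Ndufa4 knockout cells and 61.3, 76.6 and 85.9 TPM in wild-type cells. The Ndufa4l3-miR147 knockout was tight and highest, and wild type spread widely enough to reach the Ndufa4 knockout. The knockouts differed (log2 fold change 0.59 ± 0.11, adjusted p = 0.0283), and the Ndufa4 knockout did not pass against wild type (log2 fold change -0.34 ± 0.11, adjusted p = 0.101). Lgals3bp, given above, was also higher in the Ndufa4l3-miR147 knockout than in the Ndufa4 knockout (log2 fold change 0.37 ± 0.039, adjusted p = 0.00215). Ifi44, Rtp4, Samd9l and Tor3a passed in no comparison, with -0.50, -0.17, -0.28 and -0.15 in the Ndufa4 knockout against wild type.

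Nmi and Ifi35 form a complex that acts in interferon and inflammatory signalling. Nmi had 121, 115 and 112 TPM in Ndufa4l3-miR147 knockout cells, 98.4, 98.1 and 99.996 TPM in Ndufa4 knockout cells and 117, 119.5 and 119 TPM in wild-type cells. Replicates lay close together, and Nmi fell in the Ndufa4 knockout against wild type (log2 fold change -0.26 ± 0.046, adjusted p = 0.0122). It was higher in the Ndufa4l3-miR147 knockout than in the Ndufa4 knockout (log2 fold change 0.23 ± 0.046, adjusted p = 0.0345). Ifi35, its partner, had 119.8, 128 and 123 TPM in Ndufa4l3-miR147 knockout cells, 107, 114 and 125 TPM in Ndufa4 knockout cells and 119, 114 and 118 TPM in wild-type cells, with overlap between the knockouts and no call (log2 fold change -0.023 ± 0.061, adjusted p = 0.84 in the Ndufa4 knockout against wild type).

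Transcript length went together with the values of replicate 3 of the Ndufa4 knockout. The genes were split at their median transcript length of 2153 bases, from the GENCODE M21 annotation. Of the 24 longer genes, replicate 3 of the Ndufa4 knockout was the lowest of its genotype in 21 and the highest in 1. Of the 25 shorter ones it was the lowest in 8 and the highest in 9. The median difference of replicate 3 from the wild-type mean was -0.65 for the longer genes and -0.19 for the shorter, on the log2(TPM + 1) scale. For replicates 1 and 2 it was -0.26 and -0.18. The longer genes held 8 of the 16 that fell, and the shorter the other 8. Spearman's rho between length and the log2 fold change of the Ndufa4 knockout against wild type was -0.29 over the 49 genes and -0.22 over all genes with a length, and 0.053 and -0.011 without replicate 3. For the Ndufa4l3-miR147 knockout against wild type, rho was -0.28 over the 49 genes and 0.002 over all genes with a length. These are descriptions over genes measured in the same libraries. Without replicate 3 of the Ndufa4 knockout, the median of the 49 in that knockout against wild type was -0.23 and 21 of them fell. The part of read coverage in this was not tested.

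**Figure D5:**
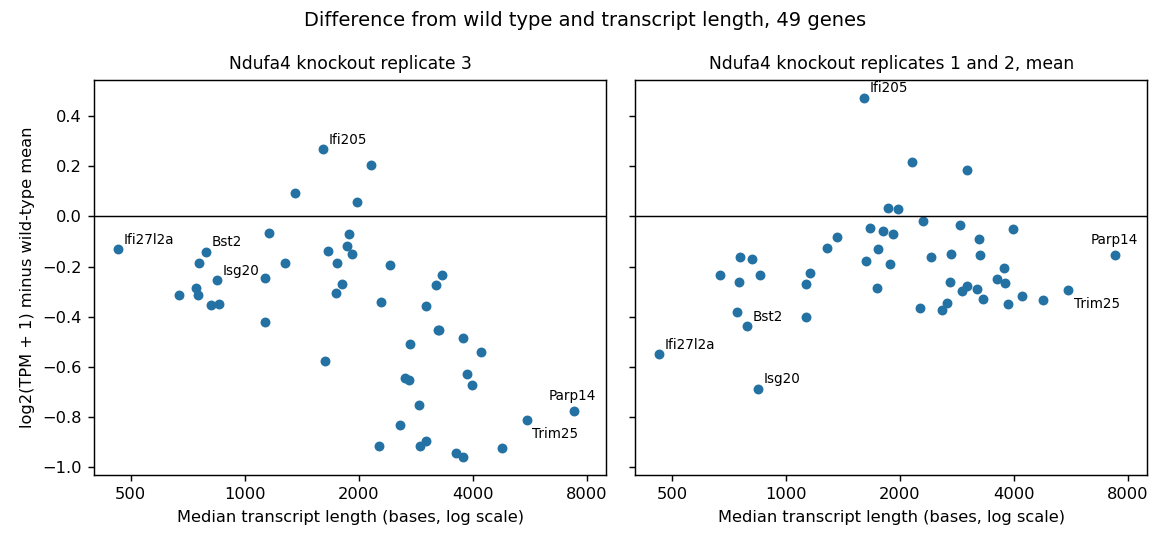
Difference from the wild-type mean on the log2(TPM + 1) scale (y axis) against median transcript length in bases (x axis, log scale) for the 49 genes, in replicate 3 of the Ndufa4 knockout (left) and in the mean of its replicates 1 and 2 (right). In replicate 3 the longer genes lie far lower, with a median of -0.65 against -0.19 for the shorter ones, while in replicates 1 and 2 the medians are -0.26 and -0.18.

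Genes with and without the response element core were counted separately. Of 15 genes with a core, 4 fell in the Ndufa4 knockout and 6 were higher in the Ndufa4l3-miR147 knockout than in the Ndufa4 knockout. Of 23 genes with a window but no core, the counts were 9 and 10. Of the 11 without a window they were 3 and 4. Over all genes tested the shares were 5.76% that fell and 2.20% that were higher. Median log2 fold changes of the Ndufa4 knockout against wild type were -0.34, -0.27 and -0.25 in these groups. No test was made between them.

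In the pathway above these genes, Stat2 and Irf7 fell in the Ndufa4 knockout, while Jak1, Irf9 and the receptor genes were not called. Of the type I interferon genes and their receptor, 2 of 6 were tested. Ifnar1 and Ifnar2 passed in no comparison, with 0 at an unadjusted p under 0.05 by limma, Ifna2, Ifna4 and Ifna5 were listed at 0 in all 9 libraries, and Ifnb1 averaged at most 0.134 TPM in any genotype. Of 4 receptor kinase and ISGF3 genes tested, 1, Stat2, fell in the Ndufa4 knockout, beside 5.76% of all genes tested. Irf9 and Jak1 were at -0.067 (adjusted p = 0.381) and -0.049 (adjusted p = 0.809) there, and Tyk2 was below the minimum. Stat2, the part of ISGF3 that type I interferon signalling needs, averaged 126 TPM in Ndufa4l3-miR147 knockout cells, 97.6 TPM in Ndufa4 knockout cells and 129.7 TPM in wild-type cells (adjusted p = 0.00746 against wild type for the Ndufa4 knockout, and 0.0193 for the knockouts against each other). Of 5 other interferon regulatory factors, 1, Irf7, fell and 1, Irf5, rose in the Ndufa4 knockout, beside 5.76% and 2.83% of all genes. Irf7, which drives interferon-alpha genes and is itself raised by interferon, averaged 488 TPM in Ndufa4l3-miR147 knockout cells, 307 TPM in Ndufa4 knockout cells and 399 TPM in wild-type cells. Its log2 fold change was -0.38 in the Ndufa4 knockout against wild type (adjusted p = 0.00714) and, for the knockouts against each other, 0.67 (adjusted p = 0.00087).

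Of 11 nucleic acid sensors and adaptors, Tlr7, a receptor for single-stranded RNA, and the kinase Tbk1 fell in the Ndufa4 knockout against wild type, at -1.08 (adjusted p = 0.0193) and -0.30 (adjusted p = 0.0431). These are 2 of 11 beside 5.76% of all genes tested. None of the 11 passed in either other comparison. At an unadjusted p under 0.05 by limma, 5 passed between the knockouts and 2 in the Ndufa4l3-miR147 knockout against wild type, in either direction. Of all genes tested, 14.6% were higher and 5.72% lower at that threshold between the knockouts, and 4.16% and 4.08% in the other. None of 5 negative regulators, such as Socs1, was called in any comparison. At an unadjusted p under 0.05 by limma, 1 of these 5 passed, Socs3, which was higher in the Ndufa4 knockout than in wild type. Of all genes tested, 18.1% were lower and 8% higher at that threshold in that comparison. Of 13 further interferon-stimulated genes that were tested, 7 fell in the Ndufa4 knockout, beside the 5.76% of all genes tested. These were Ifitm3, Oas1b, Adar, Cmpk2, Ms4a4c, Epsti1 and Znfx1. In the comparison between the knockouts, Ifitm3, Cmpk2 and Ms4a4c were higher in the Ndufa4l3-miR147 knockout, 3 of 13 beside 2.20% of all. Ifitm3, which blocks entry of enveloped virus, averaged 3619 TPM in Ndufa4l3-miR147 knockout cells, 2811 TPM in Ndufa4 knockout cells and 3734 TPM in wild-type cells (adjusted p = 0.0032 for the Ndufa4 knockout against wild type). Ms4a4c had the largest log2 fold change of these 13 between the knockouts, 1.06 (adjusted p = 0.00116).

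Markers of other cell types were measured beside these values. Plasmacytoid dendritic cells, which make much type I interferon, have 7 listed markers. These summed to 29.8 to 33.9 TPM in the Ndufa4l3-miR147 knockout, 28.4 to 30.8 TPM in the Ndufa4 knockout and 31.5 to 34.9 TPM in wild type, with Siglech, Ccr9, Spib and Klk1 below the minimum. The 6 markers of conventional dendritic cells summed to 30.0 to 35.3 TPM in Ndufa4l3-miR147 knockout cells, 40.8 to 76.6 TPM in Ndufa4 knockout cells and 27.7 to 29.6 TPM in wild-type cells, mostly through Clec9a, with Flt3, Zbtb46, Cd209a and Ccr7 under the minimum. Clec9a rose in the Ndufa4 knockout against wild type, with a log2 fold change of 0.98 and an adjusted p of 0.0166. Neutrophil markers, 6 in number, covered 37.0 to 72.8 TPM in Ndufa4l3-miR147 knockout cells, 1.39 to 38.2 TPM in Ndufa4 knockout cells and 3.83 to 79.6 TPM in wild-type cells. Fibroblast markers, 4 in number, covered 6.56 to 8.92 TPM in Ndufa4l3-miR147 knockout cells, 4.04 to 13.9 TPM in Ndufa4 knockout cells and 4.48 to 9.73 TPM in wild-type cells. Lymphocyte and NK cell markers stayed at or below 0.323 TPM in sum, and basophil and mast cell markers at or below 0.508 TPM. Of the macrophage markers, 3 were called in the Ndufa4 knockout against wild type, Mertk and Cd14 lower and Lyz2 higher. Between the knockouts, Cd14 was called higher and Lyz2 lower in the Ndufa4l3-miR147 knockout. The part of these markers in the antiviral values was not tested.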

How the data were processed

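Polyadenylated RNA of 9 macrophage libraries, 3 per genotype, was analysed from 1 table of TPM that the authors deposited. The submitters' processing notes name the tools kallisto, edgeR and DESeq2 and the builds mm10 and GRCm39, without versions or roles. Their annotation and filters are not stated. Since TPM carry no read depth, depth is unknown and counting intervals cannot be had. They are shares of a fixed total, divided by transcript length. A table entry without a gene name was left out. Near copies among the Oas, Ifit, PYHIN, Trim, Schlafen and Phf11 genes can share reads.

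Values were transformed to log2(TPM + 1), which understates changes of low genes, and genes reaching 1 TPM in 3 or more libraries were tested. In limma 3.58.1 (R 4.3.3, intensity trend, two-sided tests), 1 model with a mean for each genotype covered the 9 libraries. A call is an adjusted p under 0.05 (Benjamini-Hochberg) over the 11133 genes tested. Fold changes are given ± SE. Alternatives were other pseudocounts, filters, scalings, removal of a length and GC trend, library weights, a replicate block and leaving out each library. The procedure was tested on simulated data. The 49 genes, the pathway and marker lists and the rule for named genes were chosen with earlier results of these data known. By that rule, values per library are given for each gene of the 49 called in any comparison and for the most abundant of each role. A gene of the pathway lists is not reported here. Promoters are from RefSeq tables (GRCm38.p6), and lengths and chromosomes from GENCODE M21.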

Additional observations from a re-analysis of the deposited data

How the results depend on the processing

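For the Ndufa4 knockout against wild type, 16 of the 49 genes fell, and the count was 9 without a filter on low values, 9 with median-of-ratios scaling, 25 with a length and GC trend removed, 2 with only the 6 libraries compared and 35 with library weights. The share of all genes that fell, 5.76%, became 2.03%, 3.97%, 6.55%, 1.4% and 16.5% in these fits. The 1 rise became 2 with the length and GC trend removed and 0 with the 6 libraries. The median of -0.28 became -0.19 with the length and GC trend removed, and that over all genes, -0.076, became 0.0073. Leaving out 1 library gave 3 to 25 that fell, 0 to 1 that rose, and medians between -0.32 and -0.23. Of the 17 calls, 2, Lgals3bp and Usp18, were kept in all 18 alternatives.

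Between the knockouts, the 20 genes higher in the Ndufa4l3-miR147 knockout became 12 without a filter on low values, 11 with median-of-ratios scaling, 4 with only the 6 libraries and 41 with library weights. The share of all genes higher, 2.20%, became 0.746%, 1.31%, 0.377% and 9.94%. Leaving out 1 library gave 2 to 27 higher, 0 to 0 lower, and medians of 0.29 to 0.39. Isg20 and Lgals3bp kept their calls in all 18 alternatives. For the Ndufa4l3-miR147 knockout against wild type, the 1 higher gene became 2 with the length and GC trend removed, 5 with the 6 libraries and 5 with library weights, while the share of all genes higher, 0.243%, became 0.618%, 1.5% and 2.49%. Leaving out 1 library gave 0 to 4 higher, 0 to 0 lower, and medians of 0.030 to 0.10. The cause of these changes was not tested. For the 49 genes, no direction of a count or of a called gene was reversed. Over all genes, the balance of higher and lower calls was reversed in some fits and not in others. With the trend in length and GC taken out, 315 higher and 641 lower in the Ndufa4 knockout against wild type became 877 and 699. Between the knockouts, 245 higher and 116 lower in the Ndufa4l3-miR147 knockout became 317 and 461 in that fit. Median-of-ratios scaling gave 492 and 442, and 146 and 148, in these comparisons.

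With the replicate number as a block, 11 of the 49 fell and 0 rose in the Ndufa4 knockout against wild type, 8 were higher between the knockouts, and 0 were higher in the Ndufa4l3-miR147 knockout against wild type. Over all genes the block gave 3.93% and 2.01%, 0.934%, and 0.0988%. Same-numbered libraries correlated between -0.138 and 0.179 in their deviations from the group means, and libraries of unlike number between -0.164 and 0.132. With 3 libraries per genotype, such values cannot show whether same-numbered libraries were prepared together. With 3 technical libraries per genotype, one of which stands apart, small differences may be missed, and an adjusted p above the threshold does not show equal levels.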
